A study of Mus musculus with 3 samples.

Results

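The genes described here are 10 members of bone morphogenetic protein (BMP) signalling: the ligand genes Bmp2, Bmp4 and Bmp7, the protease gene Bmp1, the antagonist genes Grem1 and Nog, the inhibitory Smad gene Smad6, and Id1, Id2 and Id3. They were taken by symbol from a table of 22784 entries, and all 10 were found among the 22734 genes analysed. The samples were 3 mouse cell lines of the HI-Panc progression model, HI-Panc-L, HI-Panc-I and HI-Panc-M, which stand for the localized, invasive and metastatic stage. All 3 were derived without immortalization from tumours of transgenic mice whose genotype label includes p16-/-, and each was represented by 1 RNA-seq library. No library without that genotype was analysed here. The shared protocol describes culture in DMEM with 10% fetal bovine serum and exposure of hypoxic models to 100 ng/ml cobalt chloride for 24 h, without stating which libraries, if any, were exposed. Ages, promoters of the transgene and the number of clones behind each line are not given in the sources used here.

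BMP ligands are secreted dimers of the transforming growth factor beta superfamily. They bind type I and type II receptor kinases, which phosphorylate Smad1, Smad5 and Smad9, and these enter the nucleus with Smad4. Secreted antagonists such as gremlin and noggin bind the ligands outside the cell. The Id genes and Smad6 are classic targets: Id proteins lack a DNA-binding region and hold basic helix-loop-helix factors inactive, while Smad6 damps the pathway. Bmp1 carries the name but is a metalloprotease that trims procollagens and the antagonist chordin.

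The tissue label read body wall for the localized, pancreatic tissue for the invasive and liver for the metastatic line, so 2 of the labels do not sit easily with the stage names. Were the localized and invasive lines exchanged, every direction between them would turn round. Summed FPKM (fragments per kilobase of transcript, scaled to library size) was 565009 to 575244 per library. Depth estimated from the size of 1 fragment was 40600000 to 45200000 fragments. Of the duct markers, Krt19 had 181, 1970 and 2365 FPKM in the localized, invasive and metastatic libraries, and Spp1, with the highest mean of that list, had 4444, 3312 and 2196. Hepatocyte markers summed to at most 0.0586 FPKM in any library, so the liver label had no counterpart in hepatocyte transcripts. Muscle markers summed to 0.961, 0.0857 and 0.137 FPKM in the same order. That sum was low throughout, but highest in the localized library, labelled body wall, where Tnnt3 had 0.589 FPKM. Endothelial markers summed to at most 0.633 FPKM and endocrine markers to at most 2.77. Leukocyte markers summed to 4.90, 12.7 and 15.2 FPKM in the same order, with the highest mean for Cd68 (4.82, 10.5 and 9.93). Laptm5 had 0.0197, 1.61 and 4.90 FPKM, while Ptprc stayed at or below 0.197, both named after their values were seen. Acinar markers summed to 7.27, 1.17 and 0.347 FPKM, nearly all of it Cela1, with Cpa1, Pnlip, Prss1, Amy2b and Ptf1a at 0 throughout. Fibroblast markers, with the highest mean over the libraries for Col1a1, summed to 565, 90.5 and 13.9 FPKM over 10 genes in the same order, and epithelial markers, with the highest mean for Krt8, to 1195, 6293 and 6804. Of the fibroblast markers none was at exactly 0 in the localized library, but Postn had 0.0148 and Fap 0.0433 FPKM there. Postn was at 0 in the invasive library, where Fap had 0.0384 FPKM. Lum, Fap, Thy1 and Postn were at 0 in the metastatic library. Of the epithelial markers, Cldn4, Esrp1 and Grhl2 stayed at or below 0.0964 FPKM in every library. In the order localized, invasive, metastatic, Epcam had 0.209, 1.31 and 2.63 FPKM and Cdh1 20.7, 218 and 118. The order of the fibroblast and epithelial sums runs alongside several results given here, and its part in them was not tested. In bulk RNA, fewer cells of a type cannot be told apart from less RNA per cell.

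RefSeq promoter windows (GRCm38.p6, 300 bases around the annotated start) were at hand for 5 of the 10 genes: Bmp4, Grem1, Id2, Id3 and Smad6. They are shown because a pair of genes that were higher in the localized library, Grem1 and Bmp4, can be set beside Smad6 and Id2, which were lower there by less than 2-fold. Capitals mark a match to GGCGCC, the core of the BMP response element, or to GTCTAGAC, the palindromic Smad site. Both motifs read the same on either strand and they do not overlap each other. The first lines give the 250 bases before the start of Grem1 (minus strand, chr2:113758649-113758898) and Bmp4 (minus strand, chr14:46390670-46390919), 5′ to 3′. The others give 30 bases around the match of Smad6 (minus strand, chr9:64022045-64022074) and Id2 (minus strand, chr12:25096305-25096334).
Grem1: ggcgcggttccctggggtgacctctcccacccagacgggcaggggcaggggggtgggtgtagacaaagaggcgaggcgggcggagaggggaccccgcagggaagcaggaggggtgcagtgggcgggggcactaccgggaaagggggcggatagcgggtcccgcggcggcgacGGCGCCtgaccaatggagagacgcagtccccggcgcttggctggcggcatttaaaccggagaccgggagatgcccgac
Bmp4: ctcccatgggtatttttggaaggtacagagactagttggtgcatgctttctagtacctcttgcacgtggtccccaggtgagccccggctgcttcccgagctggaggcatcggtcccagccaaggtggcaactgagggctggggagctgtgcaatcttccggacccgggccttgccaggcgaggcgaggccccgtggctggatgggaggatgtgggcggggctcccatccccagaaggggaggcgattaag
Smad6: gccgccaaagtGTCTAGACtggcatatgat
Id2: caggccccctgGGCGCCcagcgcacactgt
GGCGCC occurred once in the Grem1 window, beginning 78 bases before the start, and once in the Id2 window, beginning 231 bases before it. The windows of Bmp4, Id3 and Smad6 held none. The windows of Id2 (25096043 to 25096342) and Id3 (136143572 to 136143871) lie inside the gene spans given below. For these genes the RefSeq start used is thus not the outer end of the annotated gene, and sequence beyond the window was not searched. GTCTAGAC occurred once, in the Smad6 window, beginning 4 bases before the start and so spanning it. Of 32851 promoter windows of this length, 11.9% held GGCGCC and 0.213% held GTCTAGAC. Grem1 and Id2, which share GGCGCC, differed from the localized library in opposite directions, the latter by less than 2-fold. A match is a description of the letters and says nothing of binding.

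Across the set, the localized library held the highest levels of most members, and the metastatic library held the lowest of several. A gene was counted where its mean over the libraries was at least 1 FPKM, which 8 of the 10 members reached; Bmp7 and Nog did not. It was called where log2(FPKM + 1), a scale that understates the fold of low genes, differed by at least 1 (2-fold). With 1 library per line the spread between replicates is unknown, and no test was made. Of the 8, 3 were at least 2-fold lower in the invasive than the localized library (Bmp4, Grem1 and Id3) and 0 were higher, where 6.07% of all 11404 genes counted were lower and 8.78% higher. In the metastatic against the localized library 4 were lower (Bmp4, Grem1, Id1 and Id3) and 0 higher, against 7.29% lower and 9.08% higher among all genes. In the metastatic against the invasive library only Bmp4 was lower and 0 were higher, against 1.67% and 1.33%. Median differences over the 8 were -0.51, -0.94 and -0.43 in that order, and over all genes counted 0.00, 0.00 and -0.01. The localized library was highest for 6 of the 8, as for 41.6% of all genes, and 5 of the 8 were lower at both steps of the order localized, invasive, metastatic, as were 24.3% of all genes. The comparisons share libraries, so their counts are not independent of one another.

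**Figure D1:**
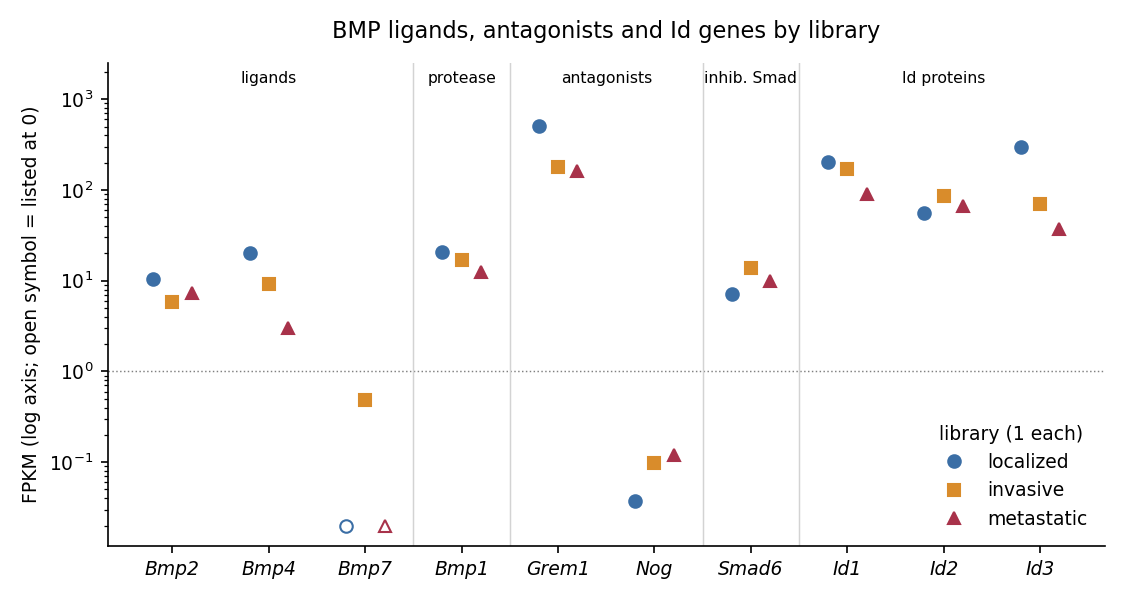
Level of each of the 10 genes in FPKM (log axis) in the localized (circle), invasive (square) and metastatic (triangle) library, 1 library each; open symbols stand for genes listed at 0 and the dotted line marks 1 FPKM. Grem1 and the Id genes lie above 30 FPKM in every library, while Bmp7 and Nog stay below 1.

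Of the ligands past the filter, Bmp2 and Bmp4, the latter varied more. Bmp4 patterns mesoderm and gut mesenchyme in the embryo. In the order localized, invasive, metastatic its levels were 20.3, 9.15 and 3.04 FPKM, about 1736, 702 and 247 fragments. Each step was a reduction whose counting interval lay above 2-fold: localized over invasive was 2.22 (95% counting interval 2.03 to 2.43) and invasive over metastatic 3.01 (2.60 to 3.49). From end to end the localized level was 6.69 times the metastatic (5.85 to 7.67). The intervals here and below cover counting error only, with fragments estimated from FPKM, transcript length and depth. In the step from invasive to metastatic, 0.745% of all genes counted had a lower difference than Bmp4. The gene lies on chromosome 14 (GRCm38, 46383520 to 46390669, minus strand). Opposite-strand Gm15217 overlaps it, with at most 0.0442 FPKM in any library.

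Bmp2, a close relative of Bmp4 known for bone and heart induction, did not follow it from the invasive to the metastatic library. Its levels were 10.5, 5.83 and 7.38 FPKM in the localized, invasive and metastatic libraries. The localized library was 1.80 times the invasive (1.66 to 1.97), and the metastatic was 1.27 times the invasive (1.15 to 1.39). The more abundant of the pair was Bmp4 in the localized and invasive libraries and Bmp2 in the metastatic. Of the summed Bmp2 and Bmp4 FPKM, Bmp4 made up 65.9%, 61.1% and 29.2% in the order localized, invasive, metastatic. The sum itself was 30.8, 14.98 and 10.4 FPKM.

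Bmp7, a ligand of kidney and eye development, was listed at 0 in the localized and metastatic libraries and had 0.486 FPKM in the invasive library. That value corresponds to about 69 fragments, estimated with a transcript length of 3670 bases. Their positions in the transcript are not known from FPKM. Against a floor of 3 fragments per library, the invasive level was at least 25.6-fold higher than the localized and at least 24.3-fold higher than the metastatic. Bmp7 and Bmp2 lie far apart on chromosome 2 (172868012 to 172940321, minus strand, and 133552159 to 133562885, plus strand). None of the 11 other BMP-type ligand genes listed (Bmp3, Bmp5, Bmp6, Bmp8a, Bmp8b, Bmp10, Bmp15, Gdf2, Gdf5, Gdf6 and Gdf7) reached 1 FPKM in any library, and together they summed to 0.280 to 0.516 FPKM. Bmp8a, with the highest mean of them, had 0.0902, 0.189 and 0.409 FPKM. Bmp2 and Bmp4 were thus the BMP-type ligand transcripts above 1 FPKM among those listed.

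**Figure D2:**
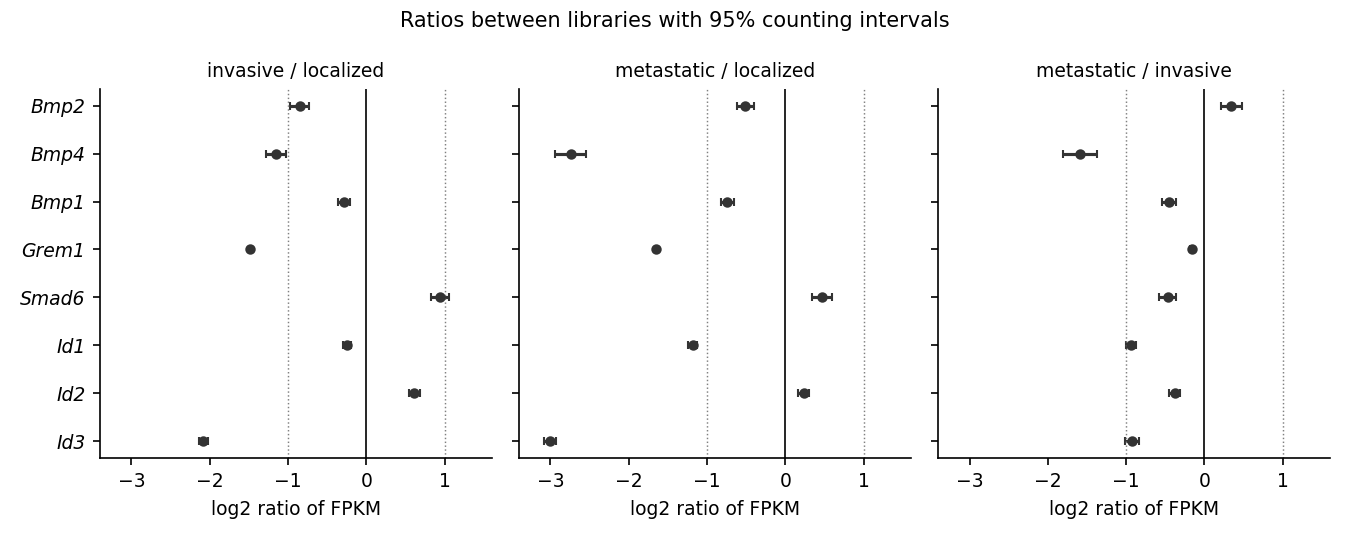
Ratio of FPKM on a log2 axis for the 8 members past the filter, in each pair of libraries; points are the ratios, bars their 95% counting intervals, and dotted lines mark 2-fold. Id3 and Bmp4 lie furthest to the left for metastatic over localized, at -3.01 and -2.74, while Id2 and Smad6 lie to the right of 0 in both comparisons with the localized library.

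Grem1 was the most abundant antagonist of the set by far. Gremlin binds Bmp2 and Bmp4 and is known in the gut as a product of stromal cells. Levels of 506, 181 and 161 FPKM for the localized, invasive and metastatic line placed it at rank 162, 462 and 513 of 11404 genes. The localized library stood above the others, which lay close together. Localized over invasive was 2.80 (2.76 to 2.83) and localized over metastatic 3.14 (3.09 to 3.18), while invasive over metastatic was 1.12 (1.10 to 1.14). Per length, Grem1 was 16.4, 12.1 and 15.5 times the sum of Bmp2 and Bmp4 in that order, so this ratio varied less than either of its parts. Grem1 lies on chromosome 2 (113746164 to 113758646, minus strand). Fmn1, its neighbour at lower coordinates (named for its position, not under the rule for names), was also highest in the localized library, with 5.32, 1.91 and 2.01 FPKM. Scg5, on the other side, stayed at or below 0.146 FPKM.

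Nog encodes noggin, an antagonist of the embryonic organizer and of joints, and lies on chromosome 11 (89300638 to 89302332, minus strand). Its levels were 0.0376, 0.0974 and 0.119 FPKM, or about 3, 6 and 8 fragments. The ratio of metastatic to localized, 3.15, had a counting interval of 0.673 to 16.4, so a difference was not detectable at this depth.

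Of 17 other secreted antagonists and modulators listed, 10 passed the filter. Of these, 3 were at least 2-fold lower and 0 higher in the invasive than the localized library, and the same numbers held for metastatic against localized. Among all genes counted, 6.07% were lower and 8.78% higher in the first comparison, and 7.29% and 9.08% in the second. Median differences were -0.19 and -0.54. Fstl1, a follistatin-like glycoprotein with the highest mean of the list over the libraries, had 147, 61.2 and 37.0 FPKM in the localized, invasive and metastatic libraries. Bmper, which binds BMPs at the cell surface, had 30.1, 8.35 and 8.36 FPKM. Htra1, a secreted serine protease, had 90.5, 9.05 and 2.40 FPKM and was the 1 member also past 2-fold between the invasive and metastatic libraries. The antagonists that did not follow this pattern included Fst, whose product follistatin binds activins more tightly than BMPs, with 43.3, 70.5 and 59.6 FPKM, and Nbl1, a relative of gremlin, with 51.5, 96.4 and 68.4 FPKM. Chrd, the gene of chordin, had 1.604, 1.68 and 2.90 FPKM, and its differences were within 2-fold; Fst, Nbl1 and Chrd are named after their values were seen.

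The protease gene Bmp1 (chromosome 14, 70474558 to 70520234, minus strand) differed less than its partners. Its levels were 20.6, 16.9 and 12.3 FPKM in the localized, invasive and metastatic libraries, lower at each step and always within 2-fold. Localized over metastatic was 1.67 (1.58 to 1.77). Pcolce, which encodes the enhancer protein that speeds procollagen trimming by Bmp1, had 414, 44.95 and 49.5 FPKM, so the localized library was 9.22 times the invasive. Its relative Pcolce2 went the other way, with 7.33, 15.4 and 21.3 FPKM. Of 15 listed substrates of the protease, 13 passed the filter. In the invasive library 8 of these were at least 2-fold lower than in the localized and 1 was higher, with a median of -2.37. The shares over all genes counted were 6.07% lower and 8.78% higher. In the metastatic library the counts against the localized were again 8 and 1, with a median of -3.96, against 7.29% and 9.08%. Biglycan, Bgn, had 535, 19.1 and 0.354 FPKM and Col1a2 had 177, 33.4 and 0.0833, whereas Lamb3, a laminin chain of epithelial basement membrane, had 1.85, 16.6 and 4.86. Col1a1, Col1a2, Col3a1 and Dcn are also on the fibroblast marker list.

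Receptor and Smad genes, which carry the signal inward, mostly differed by less than 2-fold. Of all genes counted, 6.07% were at least 2-fold lower and 8.78% higher in the invasive than the localized library. For metastatic against localized these shares were 7.29% and 9.08%. Of 12 receptors and co-receptors, 8 passed the filter. At least 2-fold lower than in the localized library in both comparisons were 3 of the 8, with 0 higher. They were the repulsive guidance molecules Rgma (7.41, 1.55 and 1.54 FPKM) and Rgmb (37.6, 13.6 and 9.39 FPKM), which act as BMP co-receptors, and neogenin, Neo1 (52.0, 24.93 and 24.97 FPKM), the receptor of that family. The signalling receptors themselves were within 2-fold: Bmpr1a had 23.3, 34.6 and 26.7 FPKM, Acvr1 20.4, 20.9 and 16.3, and Bmpr2 8.75, 10.7 and 10.9. Bmpr1b was at or below 0.119 FPKM. Of 11 Smads and Smad regulators, 9 passed the filter and 0 of these were past 2-fold in any pair. Smad9, below the filter and named after its values were seen, had 0.336, 0.163 and 1.38 FPKM, a metastatic minus invasive difference of 1.03. Smad1 had 20.0, 18.9 and 17.2 FPKM, Smad5 16.4, 11.03 and 9.68, and Smad4, the most abundant of the list, 31.2, 38.7 and 36.4. The receptors and Smads given here within 2-fold, apart from Smad4, are named after their values were seen.

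**Figure D3:**
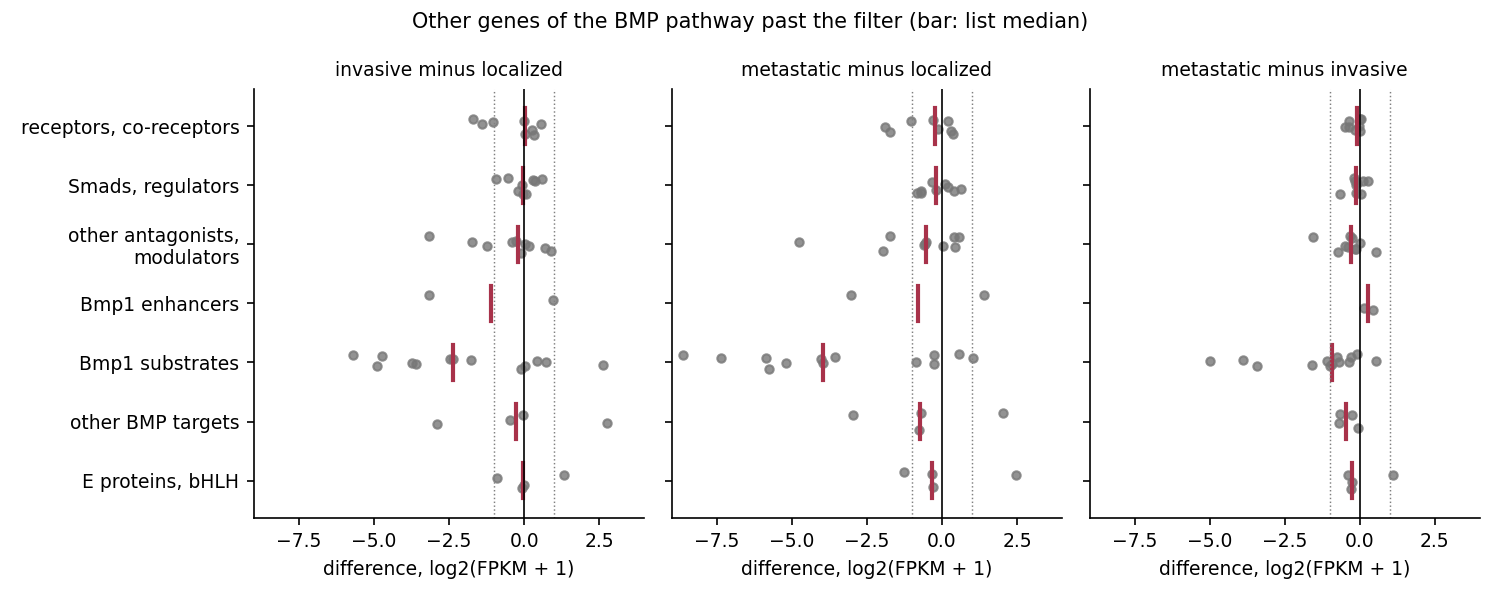
Differences in log2(FPKM + 1) for the other pathway genes past the filter, 1 point per gene, by list and pair of libraries; bars are list medians and dotted lines mark 2-fold. Bmp1 substrates spread furthest, with a median of -3.96 for metastatic minus localized, while the Smads and regulators past the filter lie between the dotted lines.

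Smad6 is induced by BMP signals and blocks the receptors' access to Smads. It was lowest in the localized library, with 7.13 FPKM, against 13.7 for the invasive and 9.89 for the metastatic one. Invasive over localized was 1.92 (1.77 to 2.09), a difference of 0.85 in log2(FPKM + 1), which is short of the 2-fold rule although the interval reaches past it. Metastatic over localized was 1.39 (1.27 to 1.51) and invasive over metastatic 1.39 (1.28 to 1.495). Smad7, the other inhibitory Smad (named after its values were seen), had 12.9, 12.5 and 7.60 FPKM and did not share this order. Smad6 lies on chromosome 9 (63953076 to 64022059, minus strand).

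Id3 had the widest range of the 8 members past the filter. Its levels in the localized, invasive and metastatic libraries were 297, 70.2 and 37.0 FPKM, ranks 269, 1287 and 2518 of 11404. The localized library stood 4.23 times above the invasive (4.07 to 4.40) and 8.03 times above the metastatic (7.64 to 8.44). Invasive over metastatic was 1.90 (1.79 to 2.01). Of all genes counted, 1.19% had a lower metastatic minus localized difference than the -2.97 of Id3. The gene lies on chromosome 4 (136143497 to 136145755, plus strand). Its neighbours there, named for their position, were Rpl11 with 1935, 1320 and 1244 FPKM and E2f2 with 5.39, 4.06 and 5.01, both within 2-fold.

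Id1 was set apart at the other step. It had 204 FPKM in the localized library, 172 in the invasive and 89.8 in the metastatic. The localized and invasive libraries were near each other, at a ratio of 1.19 (1.14 to 1.23), and the metastatic library was lower than both. Localized over metastatic was 2.27 (2.18 to 2.38) and invasive over metastatic 1.92 (1.83 to 2.01), the latter a difference of -0.93 that misses the 2-fold rule. Id1 lies on chromosome 2 (152736251 to 152737410, plus strand), between H13 (54.8, 76.0 and 70.8 FPKM) and Cox4i2 (at most 0.0399 FPKM), both named for their position.

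Id2 was higher than in the localized library where Id1 and Id3 were lower. From the invasive to the metastatic library Id2 was lower, as Id1 and Id3 were. It had 56.5 FPKM in the localized library, 86.2 in the invasive and 66.3 in the metastatic, highest in the invasive library as for Smad6. Invasive over localized was 1.53 (1.45 to 1.603), metastatic over localized 1.17 (1.12 to 1.24) and invasive over metastatic 1.30 (1.24 to 1.36), all within 2-fold. Id2 lies on chromosome 12 (25093799 to 25097140, minus strand). Id4, the remaining family member, had 0.148, 0.0982 and 0.0155 FPKM.

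Summed over Id1, Id2 and Id3, the level was 558 FPKM for the localized line, 329 for the invasive and 193 for the metastatic. The makeup of that sum differed as much as its size. Id3 was 53.3% of it in the localized library, 21.4% in the invasive and 19.1% in the metastatic. Id1 led in the other libraries, with 52.4% and 46.5% against 36.6% in the localized. Id2 went from 10.1% to 26.3% and 34.4%. Relative to the summed Bmp2 and Bmp4 FPKM, the Id sum was 18.1, 21.9 and 18.5 times as large in the localized, invasive and metastatic libraries. That near constancy holds for the sum only, since the shares of Id1, Id2 and Id3 in it differed between libraries. Smad6, set against Id1 alone, had 3.49, 7.96 and 11.01 FPKM per 100 FPKM of that gene in the same order.

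**Figure D4:**
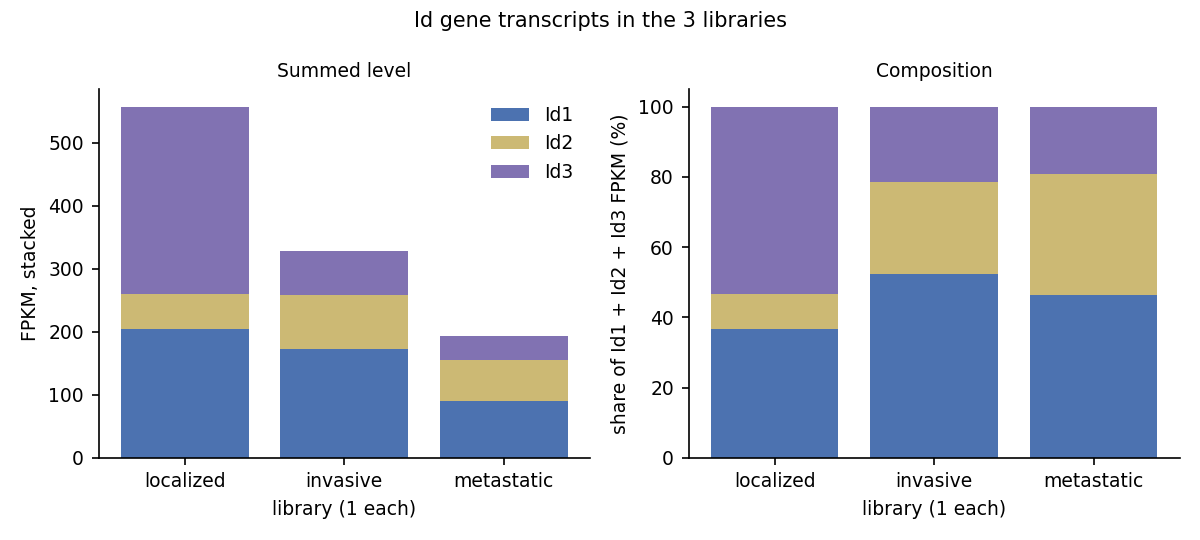
Id1, Id2 and Id3 levels stacked in FPKM (left) and as percent of their sum (right) in each library, 1 library each. From the localized to the metastatic library the sum goes from 558 to 193 FPKM and the Id3 share from 53.3% to 19.1%.

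Of 12 other BMP target genes listed, only 4 passed the filter, 1 of them at least 2-fold lower and 1 higher against the localized library in both comparisons. Shares over all genes counted were 6.07% lower and 8.78% higher for the invasive, and 7.29% and 9.08% for the metastatic library. With 4 genes, these counts describe the single genes only. Atoh8, a basic helix-loop-helix gene induced by BMPs, had 15.02, 1.14 and 1.04 FPKM in the localized, invasive and metastatic libraries, so it was highest where Id1 and Id3 were. Hes1, a target shared with Notch signalling, had the highest mean of the list, with 9.11, 66.9 and 40.8 FPKM. Runx2, with 11.9, 8.21 and 6.65 FPKM, and Smad7 were within 2-fold and are named after their values were seen. Msx2 was at 0 and Msx1 at or below 0.611 FPKM in every library. The 4 genes had median differences of -0.26 and -0.72 against the localized library.

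Id proteins bind the E proteins, the widely expressed partners of tissue-specific helix-loop-helix factors. Tcf3, the most abundant of the E protein genes, had 64.8, 64.1 and 52.2 FPKM, and Tcf4 had 16.1, 8.22 and 6.09, which was at least 2-fold lower in the metastatic than the localized library. The 3 E protein genes Tcf3, Tcf4 and Tcf12 summed to 108, 98.2 and 80.0 FPKM, so the Id sum was 5.15, 3.35 and 2.41 times theirs. The acinar factor Ptf1a and the endocrine factor Neurod1 were at 0 in every library, and Neurog3 was at or below 0.0161 FPKM. Ascl2, a factor of intestinal stem cells, was the 1 tissue factor past the filter, with 0.0915, 1.76 and 4.99 FPKM. Its order was the reverse of that of Id1 and Id3.

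Over the 90 other pathway genes listed, without repeats, 48 passed the filter. In the invasive against the localized library 16 were at least 2-fold lower and 3 higher, against 6.07% and 8.78% of all genes counted. Of these 16, 8 were Bmp1 substrates, and 4 of the 8 are on the fibroblast marker list. In the metastatic against the localized library 17 were lower and 4 higher, against 7.29% and 9.08%. Between the metastatic and invasive libraries 6 were lower and 1 higher, against 1.67% and 1.33%. Their medians were -0.11, -0.54 and -0.26.

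The genes whose 2 differences from the localized library lay nearest to those of a member were sought for the 4 members of widest range, over 3 libraries and 10789 named genes. Nearest to Id3 were Gypc (8.32, 1.16 and 0.138 FPKM) and the syndecan Sdc3 (32.6, 7.60 and 3.13 FPKM), at Euclidean distances of 0.075 and 0.11 in log2(FPKM + 1). Nearest to Bmp4 were Antxr1 (11.4, 4.29 and 1.41 FPKM) and Apol9a (37.4, 16.2 and 7.16 FPKM), at 0.16 and 0.19. Mme (3.17, 0.550 and 0.344 FPKM) was among the genes nearest to Grem1, at 0.054. Rom1 and Arl4c were nearest to Id1, at 0.065 and 0.090. Within a distance of 0.25 lay 9 genes for Id3, 5 for Bmp4, 59 for Grem1 and 23 for Id1. With 3 libraries such likeness describes differences in log2(FPKM + 1) in these libraries alone. That scale understates the fold of low genes, so genes such as Gypc and Mme need not share the member's fold.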

How the data were processed

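Each line's RNA (Trizol, 1 ug of total RNA) went into a TruSeq library, per the labels' protocols. The authors deposited 1 table of FPKM per gene; Cufflinks 2.2.1, STAR 2.5.2a, FastQC 0.11.2 and the GRCm38 build are listed without roles per the submitters' processing notes. No source used here gives the strandedness. The lowest deposited value was exactly 0.1 in every column, so 0.1 was subtracted. Left out were 27 entries whose symbol had become a date number and 23 short RNA genes, leaving 22734. Differences were taken in log2(FPKM + 1) for the 11404 genes with a mean of at least 1 FPKM and called at 2-fold. Groups came from the stage label.

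Depth was the value at which most low FPKM of genes with 1 GENCODE M21 transcript became whole fragments, after taking 175 bases off each length. Then 76.5% to 79.4% of low values lay within 0.07 of a whole number, against 14% for evenly spread values. Intervals for ratios are exact conditional binomial intervals at 95% on these estimated fragments, using for each gene the protein-coding transcript with the lowest identifier. They assume the same isoforms in each library. The scripts were tested on simulated data.

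The members and gene lists were chosen with earlier results of these data known. The rule for names took all 10 members, the pathway genes past 2-fold and the gene of each list with the highest mean. It also took the genes of nearest pattern. The text names part of these and marks some additions. Unmarked additions include Krt19 and other cell type markers, and list genes at low levels such as Id4, Msx1, Msx2 and Neurog3. One item of the genotype label and 1 gene of nearest pattern are not reported here. Alternatives covered the pseudocount, filter, offset, scaling and fold rule. Python 3.11.15, pandas 2.3.3 and SciPy 1.17.1 were used.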

Additional observations from a re-analysis of the deposited data

How the results depend on the processing

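The counts of members past 2-fold (3 between the invasive and localized libraries, 4 between metastatic and localized, 1 between metastatic and invasive) had the same size with a pseudocount of 0.1, with no filter, with a mean of at least 5 FPKM, with the deposited values as they are, and with both other scalings. A 1.5-fold rule gave 6, 5 and 3 members, and 14 other pathway genes for metastatic against invasive in place of 7. All genes past 2-fold numbered 1693, 1866 and 343. With a mean of at least 5 FPKM they were 1111, 1231 and 207, where fewer genes are tested, and under the 1.5-fold rule 3088, 3423 and 1010. With a pseudocount of 0.1 the last count was 600. Of 120 values of single members under alternatives, 0 changed sign and 7 moved by more than 0.5 of the width of their counting interval. With a pseudocount of 0.1, Bmp7 moved most, from 0.57 to 2.55 for invasive minus localized and from -0.57 to -2.55 for metastatic minus invasive. Bmp4 then went from -2.40 to -2.70 for metastatic minus localized and from -1.33 to -1.56 for metastatic minus invasive. Median-of-ratios scaling moved Grem1 from -1.48 to -1.45 for invasive minus localized and from -1.64 to -1.60 for metastatic minus localized. Scaling to the same summed FPKM moved its metastatic minus invasive difference from -0.164 to -0.138. The narrow counting intervals of Grem1 therefore do not cover the choice of scaling. No paired analysis was possible because each stage has 1 library. Depth limits Nog, and for Bmp7 it leaves only a lower bound on the fold. The lack of replicates limits every value.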
